A study of Mus musculus with 8 samples.

Results

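The 64 protein-coding genes described here kept similar RNA levels in naive and CpG-stimulated mouse splenic B cells, and were at 25% or less of both levels after a final 5-hour stimulation. They were chosen from measured values by the following rule. Counts were divided by each library's total over genes and scaled to 1000000 counts (CPM), and group means were taken. A gene had to reach a naive mean of at least 5 CPM, a ratio of CpG to naive means between 0.67 and 1.5, a TLR mean of at most 25% of each other mean, and a level in each TLR library below those of all other libraries. The 3 genes named in the rule and the immunoglobulin genes were left out. Of 20182 protein-coding genes in the files, 6241 met the naive level and the window for the CpG to naive ratio, and 64 of these (1.03%) met the whole rule. Because the rule used all 8 libraries and every comparison, the values of these genes are given as a description, and no p-value is attached to them.

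RNA was sequenced from isolated splenic B cells of B6 (C57BL/6) mice, in 3 groups. The naive group had 3 libraries of unstimulated cells. Both stimulated groups are labelled Bregs (regulatory B cells). In the CpG group, 3 libraries came from cells kept in culture for 3 days with the synthetic DNA CpG ODN1668, which B cells sense through an endosomal Toll-like receptor. The TLR group had 2 libraries of cells given the same CpG culture plus lipopolysaccharide (LPS, a bacterial cell wall component), PMA (a phorbol ester that switches on protein kinase C) and ionomycin (which lets calcium into cells) during the last 5 hours. The 3 late agents were added together, so their parts cannot be told apart, and cells given them without CpG were not analysed here. No gene was altered in these cells, and the labels give no age or sex of the mice and do not say whether libraries came from separate animals or cultures. The p-values below therefore measure only the spread between these libraries.

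A resting B cell carries an antigen receptor whose signalling chains recruit kinases, adaptors and exchange factors that raise calcium and activate Ras. Its threshold is held by inhibitory receptors, and its resting state by growth-arrest genes such as those of the Btg and Klf families. Phorbol ester and ionomycin stand in for the diacylglycerol and calcium made downstream of the receptor and so act without it.

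Each library held 15804311 to 20069272 counts on genes, so a single count was worth 0.0498 to 0.0633 CPM. The libraries numbered replicate 1 are named with a different prefix from the others and had more reads aligned to several places (37.5% to 50.2%, against 14.7% to 21.5% in the others). The summed level of 8 B cell markers was 9322 to 9454 CPM in the naive, 7444 to 11090 CPM in the CpG and 2929 to 3073 CPM in the TLR libraries, and Cd79b, one of the 64 genes, is among them. All 8 markers were nevertheless detected in every TLR library, Cd22 at 823 and 935 CPM and Ebf1 at 302 and 290 CPM. The 12 macrophage and monocyte markers summed to 178 to 1365 CPM in the naive libraries, with replicate 1 the highest, to 19.3 to 42.5 CPM in CpG and to 14.9 to 18.9 CPM in TLR. The 12 T cell markers summed to 66.3 to 96.6, 92.8 to 126 and 27.6 to 28.0 CPM in the naive, CpG and TLR libraries, with Cd3e, Cd4 and Cd8b1 at 0 in both TLR libraries, and Cd163 of the macrophage list was at 0 there too. Most of the T cell sum in CpG was Lck (66, 58 and 40 CPM) and Il7r (24.8, 32.6 and 82.9 CPM). Cd3e was already at 0, 0.212 and 0 CPM in CpG, and Cd4 at 0.19 CPM or less. The 10 natural killer cell markers summed to 23.6 to 97.7, 23.2 to 47.5 and 76.9 to 91.3 CPM, of which Tbx21 made 90.0 and 75.2 CPM in TLR, with Ncr1, Gzma, Gzmb and Nkg7 at 0 there. Tbx21 also made most of this sum in CpG, where Ncr1, Gzma, Gzmb and Nkg7 were at 0.11 CPM or less. The 8 dendritic cell markers (57.9 to 112, 78.2 to 106 and 75.5 to 86.6 CPM) overlapped between groups, with Clec9a, Siglech and Cd209a at 0 in TLR and at 0.19 CPM or less in CpG. Most of the dendritic sum was Bst2 in CpG (66, 64 and 70 CPM) and in TLR (71.2 and 79.7 CPM). The 7 erythroid and platelet markers summed to at most 3.50 CPM in TLR, with Ppbp at 0. The part of other cell types in the levels below was not tested. In RNA from whole populations, fewer cells that express a gene and less RNA per cell cannot be told apart.

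Summed over the 64 genes, the level was 15008, 14959 and 14875 CPM in the naive libraries, 15630, 12667 and 12805 CPM in the CpG libraries, and 2678 and 2843 CPM in the TLR libraries. The rule requires similar naive and CpG levels and a low TLR level, so it fixes the course of these sums. Nothing is read from that course. The TLR mean lay between 3.83% and 24.99% of the lower of the other means, with a median of 18.6%: 2 genes were at or below 5%, 8 at or below 10%, 39 at or below 20%, and 25 above 20%. The lowest of the 6 naive and CpG libraries stood 2.95 to 21.6 times above the highest TLR library, with a median of 4.20. The 2 TLR libraries were within 1.5 times of each other in 55 of the 64 genes, and replicate 2 was the higher of them in 47.

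**Figure D1:**
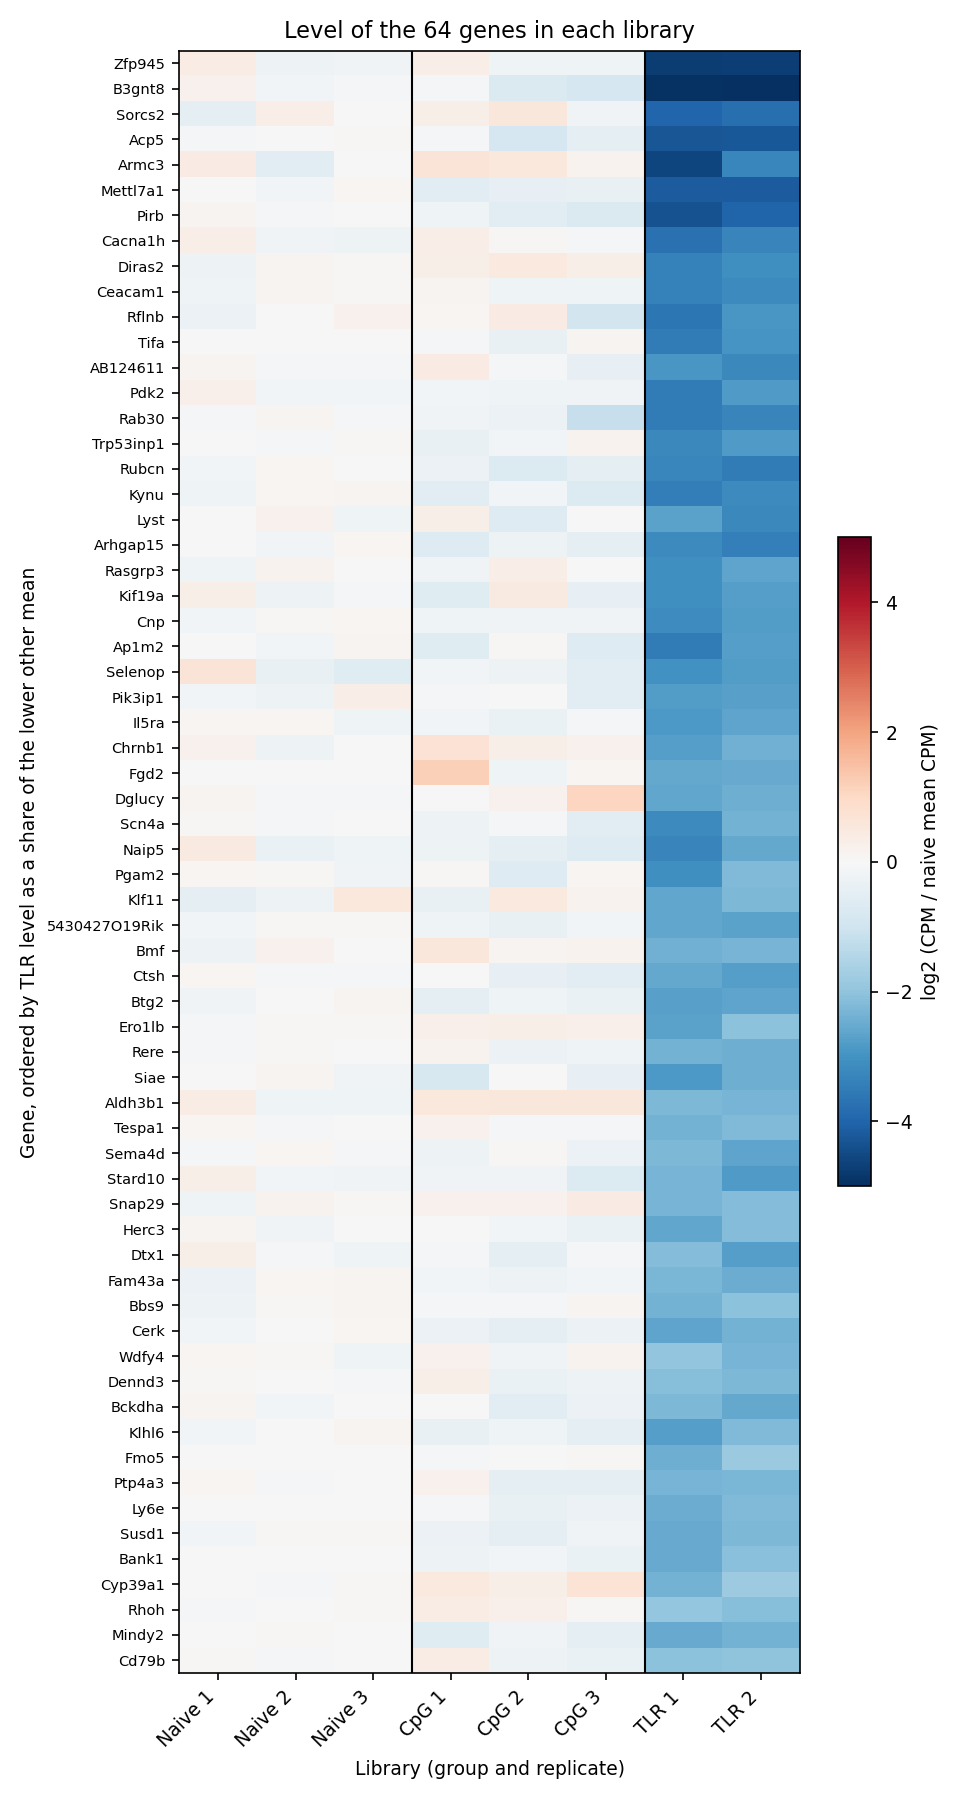
Heat map of the 64 genes (rows, ordered by TLR level as a share of the lower other mean) in the 8 libraries (columns), coloured by log2 of CPM over the naive mean. The naive and CpG columns are pale and both TLR columns are blue in every row, darkest for Zfp945 and B3gnt8 at the top.

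Within the window set by the rule, the CpG mean was below the naive mean in 45 genes and above it in 19, with a median ratio of 0.900. Naive and CpG libraries overlapped in 43 genes. All 3 CpG libraries were below all 3 naive libraries in 15 genes, and above them in 6 (Diras2, Ero1lb, Aldh3b1, Snap29, Cyp39a1 and Rhoh). In the fit over all genes (edgeR's quasi-likelihood test, Benjamini-Hochberg adjusted p below 0.05), 21.9% of 13964 tested genes were called lower and 23.5% higher in CpG against naive. Of the 64 genes 4 were called lower and 2 higher, but the window was set on this same ratio, so nothing is read from these counts. All 64 genes passed the filter on low counts. All 64 were called lower in TLR against CpG and against naive, where 19.8% and 29.7% of tested genes were called lower (19% and 31.6% higher), and 14.9% lower in both. The rule fixes that count, so nothing is read from it.

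Fewer genes met the opposite pattern at the same distance, but the floor of 5 CPM on the naive mean does not act alike on both directions. It leaves out genes that rose in TLR from a naive mean below 5 CPM. The counts were not recomputed with a floor on the TLR mean, so nothing is read from their difference. In the same window of 6241 genes, 14 were at least 4 times higher in TLR than in both other groups with both TLR libraries above all others, led by Serpinb6b (a serine protease inhibitor), Stat5a (a transcription factor of cytokine signalling), Hilpda and Mpzl1. At a milder distance the counts were alike: 340 genes had a TLR mean of at most 50% with both TLR libraries lowest, and 334 had a TLR mean at least 2 times higher with both highest. Both TLR libraries were the lowest in 1377 genes of the window (22.1%), and in 22.3% of all tested genes. Just inside the 25% limit were Rhoh at 24.4%, Mindy2 at 24.6% and Cd79b at 24.99%. Just outside it were Susd3 at 25.07%, Zfp385a at 25.08% and P2ry10b at 25.09%.

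**Figure D2:**
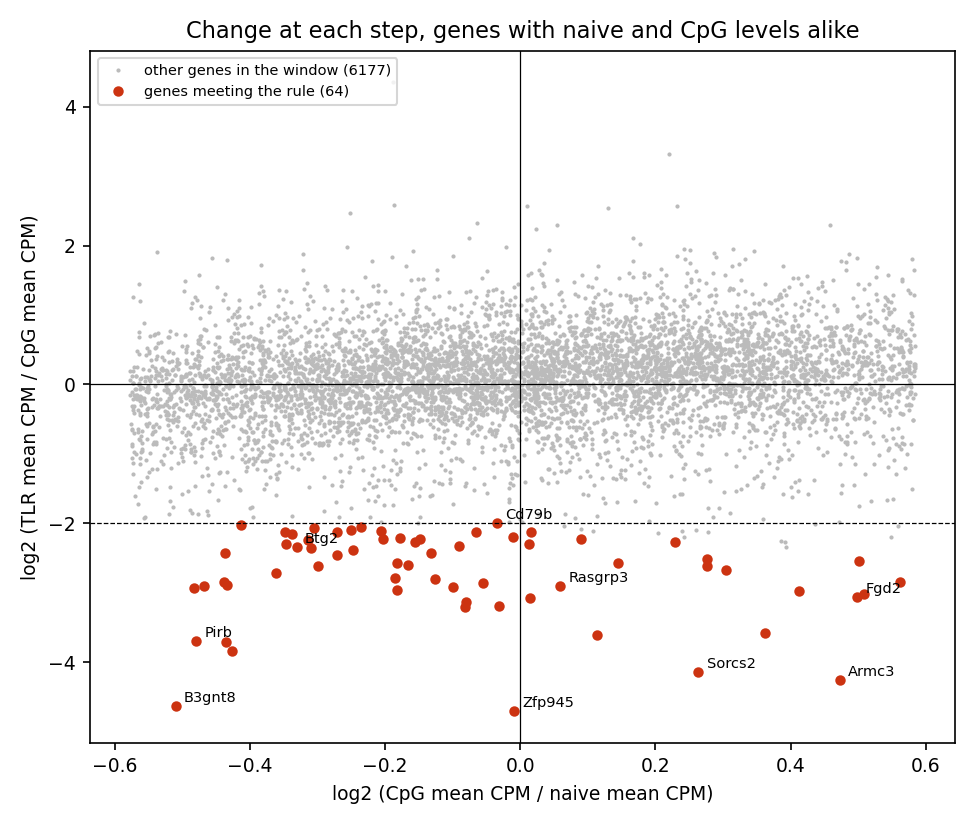
Scatter of the 6241 genes of the window, with log2 of CpG over naive mean CPM on the x axis and log2 of TLR over CpG mean CPM on the y axis. The 64 genes (red) lie at or below the dashed line at 4 times lower and spread over the whole width of the window, and Zfp945, B3gnt8, Armc3 and Sorcs2 lie lowest.

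Among genes of the antigen receptor and its signalling, the most abundant per length was Cd79b, which encodes a signalling chain of the antigen receptor. Cd79b was at 2173, 1992 and 2016 CPM in the naive libraries, 2700, 1709 and 1628 CPM in the CpG libraries, and 491 and 515 CPM in the TLR libraries. CpG replicate 1 was the highest library and the 2 others lay below all naive libraries, so the naive and CpG groups overlapped, while both TLR libraries stood far below. Per kb of the longest annotated transcript, its mean was 1440 CPM in naive, 1406 in CpG and 351 in TLR. These values were above those of Ly6e, a GPI-anchored surface protein (1148, 965 and 226 CPM per kb). Bank1, a scaffold that couples the receptor to kinases and calcium release, was at 794, 821 and 782 CPM in naive, 674, 720 and 642 CPM in CpG, and 141 and 187 CPM in TLR. For Bank1 the 3 groups did not overlap, and the step from CpG to TLR (4.14-fold lower) was the large one. Rasgrp3, an exchange factor that binds diacylglycerol and activates Ras, was at 256, 336 and 306 CPM in naive, 266, 378 and 292 CPM in CpG, and 35.6 and 48.1 CPM in TLR, with naive and CpG overlapping. Pik3ip1, a membrane protein that restrains PI3K, had means of 71.2 ± 16.3 CPM in naive, 63.5 ± 11.8 in CpG and 10.5 ± 0.313 in TLR (SD, n = 3, 3 and 2). Tespa1, a signalling adaptor known from thymocytes, had means of 50.5 ± 3.10 CPM in naive (SD, n = 3), 50.9 ± 6.23 in CpG (n = 3) and 10.4 ± 0.781 in TLR (n = 2). Klhl6, an adaptor of a ubiquitin ligase used in B cells, had means of 220 ± 20.6, 173 ± 13.9 and 39.8 ± 10.6 CPM in the same order.

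Inhibitory receptors and enzymes that set the threshold of the receptor were also among the 64. Pirb, an inhibitory receptor for class I MHC, was at 92.9, 79.4 and 84.1 CPM in naive, 73.3, 58.8 and 51.9 CPM in CpG, and 4.16 and 5.30 CPM in TLR. All CpG libraries of Pirb were below all naive libraries, and its TLR mean was 7.71% of its CpG mean, the deepest in this group of 13 genes. Ceacam1, an adhesion receptor with inhibitory motifs in its tail, was at 53.9, 68.9 and 64.3 CPM in naive, 69.0, 53.4 and 54.3 CPM in CpG, and 5.93 and 6.84 CPM in TLR, with naive and CpG overlapping. Siae, an esterase that trims the sialic acids read by Cd22, was lower still in level, with means of 23.9 ± 2.52 CPM in naive, 18.8 ± 5.38 in CpG and 3.81 ± 0.797 in TLR (SD, n = 3, 3 and 2). Pirb and Ceacam1 have close copies in the genome, whose reads the counting may have split or dropped.

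Cytokine and contact receptors gave the same order. Il5ra, the ligand-binding chain of the interleukin 5 receptor, was at 68.8, 69.5 and 55.7 CPM in naive, 59.0, 51.1 and 61.0 CPM in CpG, and 8.83 and 10.4 CPM in TLR. The naive and CpG libraries of Il5ra overlapped. Sema4d, a semaphorin whose B cell receptor is Cd72, was at 344, 377 and 343 CPM in naive, 294, 369 and 293 CPM in CpG, and 75.4 and 57.2 CPM in TLR. Ly6e was at 2626, 2596 and 2634 CPM in naive, 2463, 2022 and 2118 CPM in CpG, and 466 and 563 CPM in TLR, so its CpG libraries all lay below its naive libraries and the TLR libraries lower again. Ptp4a3, a membrane-bound phosphatase, had 740, 655 and 683 CPM in naive, 796, 505 and 500 CPM in CpG, and 139 and 140 CPM in TLR. CpG replicate 1 was the highest of the 8 libraries for Ptp4a3 and for Cd79b.

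Innate sensing and Notch signalling gave 3 genes. Tifa, an adaptor that links bacterial sugar sensing to NF-kB, was at 47.9, 45.9 and 46.1 CPM in naive, 44.8, 35.6 and 51.9 CPM in CpG, and 4.10 and 5.97 CPM in TLR. Dtx1, a ubiquitin ligase that regulates Notch, was at 379, 290 and 265 CPM in naive, 288, 227 and 296 CPM in CpG, and 69.2 and 46.6 CPM in TLR, the least alike pair of TLR libraries with replicate 1 higher. Naip5, a sensor of bacterial flagellin, had means of 18.3 ± 5.68, 13.5 ± 1.74 and 2.51 ± 0.890 CPM (SD, n = 3, 3 and 2). Its close copy Naip6, which did not meet the rule, was at 7.72, 9.13 and 2.00 CPM on average and fell in TLR against CpG (log2 fold change -2.20, SE 0.337, edgeR adjusted p = 0.000735).

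Growth arrest, cell death and transcription gave 6 genes. Btg2, an antiproliferative protein that recruits the mRNA deadenylase, was at 427, 477 and 530 CPM in naive, 349, 409 and 382 CPM in CpG, and 72.3 and 77.8 CPM in TLR. All CpG libraries of Btg2 lay below all naive libraries, by far less than the TLR libraries did. Trp53inp1, a stress protein induced by p53, was at 268, 261 and 284 CPM in naive, 210, 245 and 303 CPM in CpG, and 29.3 and 37.6 CPM in TLR. Bmf, which promotes apoptosis by binding survival proteins of the BCL2 family, was at 86.4, 120 and 104 CPM in naive, 155, 113 and 116 CPM in CpG, and 19.4 and 20.8 CPM in TLR, with a CpG mean above the naive mean and overlapping libraries. Klf11, a Krüppel-like repressor, was the most variable of the 6 outside TLR, at 18.0, 20.9 and 36.6 CPM in naive and 19.4, 35.6 and 28.5 CPM in CpG, against 4.16 and 5.25 CPM in TLR. Rere, a nuclear receptor corepressor, had means of 376 ± 12.1, 353 ± 62.5 and 70.8 ± 3.37 CPM (SD, n = 3, 3 and 2).

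Zfp945, a zinc finger protein, had the lowest TLR share of all 64 genes, 3.83%. It was at 39.1, 25.5 and 26.9 CPM in naive, 38.1, 26.5 and 26.3 CPM in CpG, and 1.14 and 1.18 CPM in TLR, which rest on 20 and 23 counts. Replicate 1 was the highest library in both the naive and the CpG group, and the ratio of CpG to naive means was 0.994. B3gnt8, which extends the sugar chains of glycoproteins, followed at 4.05%. B3gnt8 was at 109, 85.8 and 87.0 CPM in naive, 88.8, 56.2 and 52.8 CPM in CpG, and 3.08 and 2.26 CPM in TLR, 35.1-fold below naive and 24.7-fold below CpG. Its exons overlap those of Bckdha, another of the 64 genes, on the opposite strand, and since counting ignored strand their reads cannot be told apart where they overlap.

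**Figure D3:**
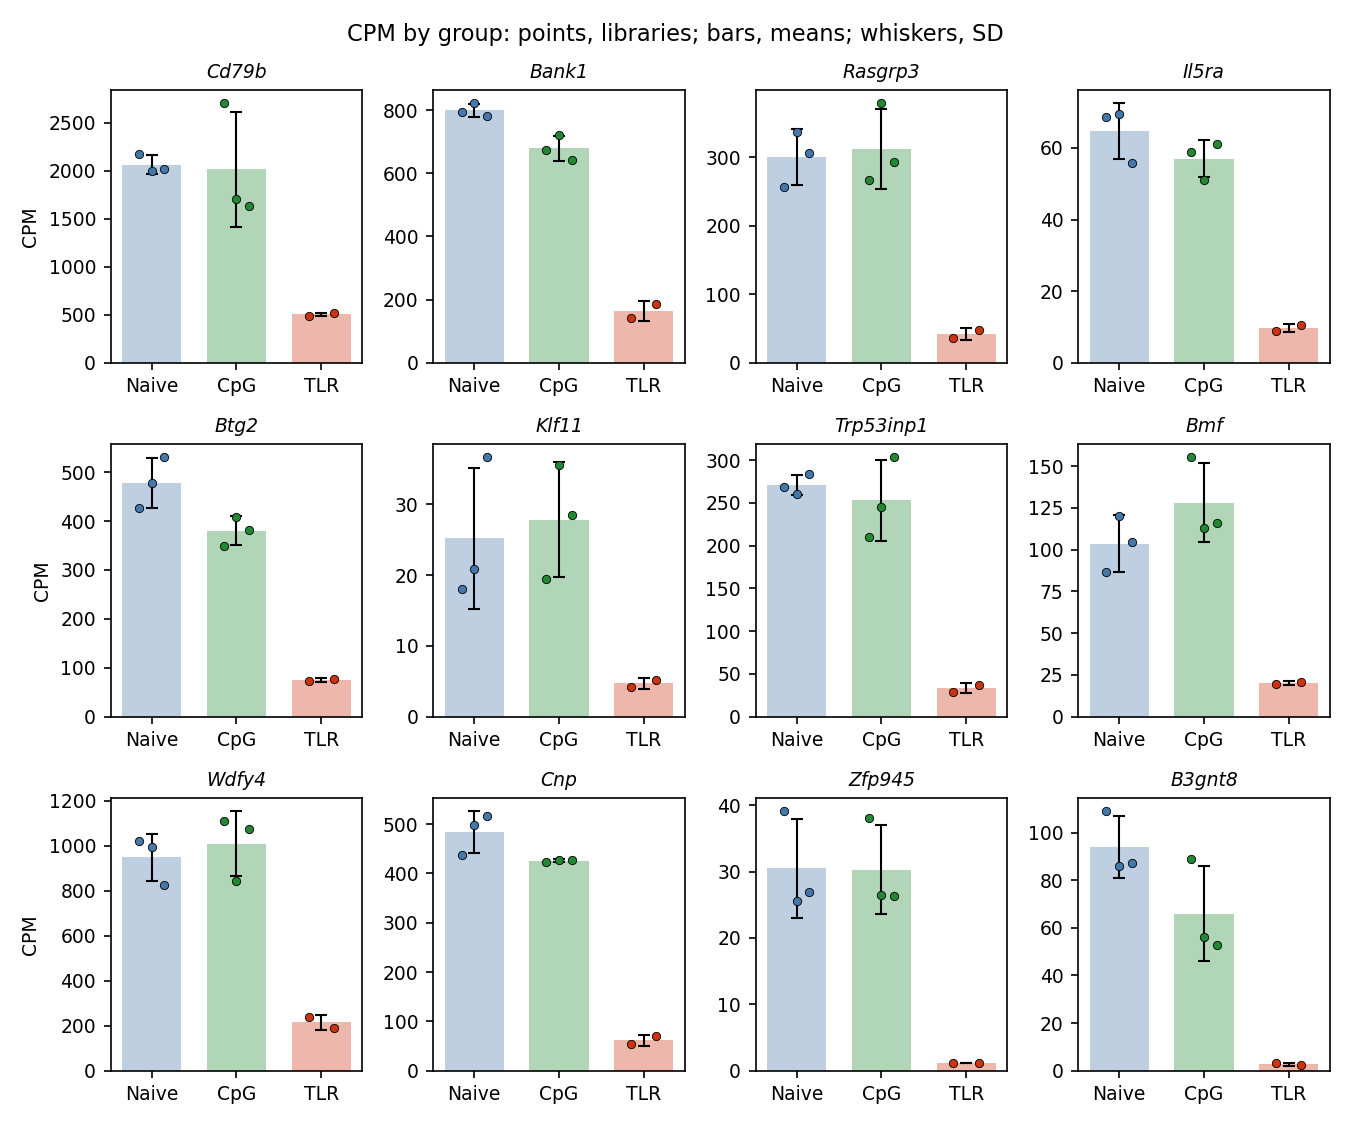
CPM of 12 of the 64 genes by group, with 1 point per library, bars for group means from 0 and whiskers for the SD (n = 3, 3 and 2). In each panel both TLR points lie below every naive and CpG point, and the CpG point far above the others in the Cd79b panel is replicate 1 at 2700 CPM.

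Promoters are shown for the gene with the lowest TLR share (Zfp945), the growth-arrest gene Btg2 and the receptor-signalling genes Bank1 and Rasgrp3, so that their composition can be set beside the shared pattern. The sequences are from RefSeq, build GRCm38.p6, and cover the 250 bases before the annotated start, 5′ to 3′ on the gene's strand. Capitals mark motif letters found on either strand: ETS (CCGGAA), GC box (GGGCGG) and KLF (CACCC) in Zfp945, CRE (TGACGTCA), GC box and CCAAT box (CCAAT) in Btg2, and ETS and TATA box (TATAAA) in Bank1 and Rasgrp3. Also searched were AP-1 (TGACTCA), the E-box (CACGTG), FOX (TGTTTAC), NFAT (TGGAAA), the octamer (ATTTGCAT) and YY1. Matches may overlap, and TGACGTCA and CACGTG read the same on both strands.
Zfp945, chr17:22867135-22867384, minus strand: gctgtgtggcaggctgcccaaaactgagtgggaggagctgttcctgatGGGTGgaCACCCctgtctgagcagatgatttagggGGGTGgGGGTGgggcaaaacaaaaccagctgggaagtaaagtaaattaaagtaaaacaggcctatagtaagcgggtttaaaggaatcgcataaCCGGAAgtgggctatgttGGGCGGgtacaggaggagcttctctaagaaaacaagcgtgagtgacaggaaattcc
Btg2, chr1:134079156-134079405, minus strand: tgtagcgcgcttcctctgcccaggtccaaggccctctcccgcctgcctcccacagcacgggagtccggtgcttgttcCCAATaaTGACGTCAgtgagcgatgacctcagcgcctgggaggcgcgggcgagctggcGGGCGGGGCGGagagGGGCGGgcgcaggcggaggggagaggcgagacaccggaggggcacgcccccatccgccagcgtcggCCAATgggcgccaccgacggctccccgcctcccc
Bank1, chr3:136326067-136326316, minus strand: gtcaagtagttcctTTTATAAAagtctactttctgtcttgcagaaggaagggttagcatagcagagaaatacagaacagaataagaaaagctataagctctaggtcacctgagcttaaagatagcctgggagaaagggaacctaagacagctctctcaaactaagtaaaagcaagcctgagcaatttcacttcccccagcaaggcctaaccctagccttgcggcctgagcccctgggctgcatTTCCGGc
Rasgrp3, chr17:75435655-75435904, plus strand: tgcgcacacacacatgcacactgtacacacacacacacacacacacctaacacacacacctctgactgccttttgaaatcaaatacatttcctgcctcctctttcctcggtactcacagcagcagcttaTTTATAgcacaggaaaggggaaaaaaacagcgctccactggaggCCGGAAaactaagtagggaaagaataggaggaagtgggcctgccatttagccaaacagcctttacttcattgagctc

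The Zfp945 stretch held an ETS match 74 bases before the start, a GC box at 56 and 4 KLF matches. The Btg2 stretch held a CRE match at 166, 3 GC boxes at 115, 110 and 100, and CCAAT boxes at 173 and 34. The Bank1 stretch held an ETS match 7 bases before the start and overlapping TATA matches at 236 and 234, and the Rasgrp3 stretch an ETS match at 77 and a TATA match at 121. Across 27025 mouse promoters of 300 bases (50 of them after the start), 15.2% held the ETS letters, 35.9% the GC box, 56.8% the KLF letters, 38% the CCAAT box, 14.2% the TATA letters and 1.85% the CRE. The ETS letters were in 4 of the 50 promoters of the 64 genes that were found, and 3 of those 4 are printed here, so the printed promoters do not stand for the rest. Among 5180 promoters of genes of the window, 36.0% held the ETS letters and 67.5% the GC box, so the shares over all mouse promoters are not those of genes expressed here. No motif of the list was in all 4 promoters, and a match is a description, not a bound site. The 50 promoters found for the 64 genes are fewer than 80%, so a comparison of promoter composition over the 64 is void. The ETS count above is given only to place the printed promoters. Nothing is read from it about the 64, and no other motif is counted over them.

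Small GTPases and their regulators gave 6 genes. Rhoh, a small GTP-binding protein of blood cells that lacks GTPase activity, was at 198, 210 and 217 CPM in naive, 267, 246 and 219 CPM in CpG, and 53.9 and 47.7 CPM in TLR, all CpG libraries being above all naive ones. Fgd2, an exchange factor for Cdc42, was at 364, 356 and 370 CPM in naive, 835, 316 and 390 CPM in CpG, and 60.9 and 62.6 CPM in TLR. CpG replicate 1 was the high library of Fgd2, whose CpG values differed by 2.64 times, the most of any of the 64 genes. Arhgap15, which switches off Rac, was at 136, 122 and 142 CPM in naive, 84.4, 113 and 97.7 CPM in CpG, and 14.8 and 12.5 CPM in TLR, and its CpG libraries all lay below the naive ones. Rab30 (Golgi traffic) had means of 46.0 ± 4.20, 33.0 ± 10.8 and 4.34 ± 0.415 CPM, and Dennd3 (a Rab exchange factor) 194 ± 8.71, 185 ± 47.8 and 42.3 ± 2.17 CPM (SD, n = 3, 3 and 2). Diras2, a Ras-like protein best known from brain, had means of 11.7 ± 1.61, 15.1 ± 1.23 and 1.26 ± 0.177 CPM.

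Membrane traffic, autophagy and ubiquitin genes gave 7. Wdfy4, a BEACH-domain protein known for antigen cross-presentation in dendritic cells, was at 1022, 994 and 826 CPM in naive, 1109, 843 and 1072 CPM in CpG, and 239 and 191 CPM in TLR. Rubcn, a brake on autophagy, was at 342, 401 and 379 CPM in naive, 302, 235 and 275 CPM in CpG, and 39.0 and 33.5 CPM in TLR, with no overlap between any pair of groups. Lyst, the lysosomal trafficking regulator mutated in beige mice, was at 153, 182 and 135 CPM in naive, 192, 101 and 159 CPM in CpG, and 24.6 and 16.8 CPM in TLR, with naive and CpG overlapping. Snap29, a SNARE of autophagosome fusion, was at 150, 197 and 181 CPM in naive, 202, 203 and 235 CPM in CpG, and 35.5 and 39.1 CPM in TLR. Rubcn was thus lower at each stage, while Snap29 was highest in CpG. The adaptor subunit Ap1m2 (7.67 CPM at most in any library), the ubiquitin ligase Herc3 and the deubiquitinase Mindy2 had TLR means of 15.2%, 21.4% and 24.6% of the lower other mean.

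The largest set was 17 lysosomal, lipid and metabolic enzymes. Acp5, the tartrate-resistant acid phosphatase, was at 224, 231 and 241 CPM in naive, 223, 129 and 166 CPM in CpG, and 11.9 and 12.4 CPM in TLR. Ctsh, the lysosomal protease cathepsin H, was at 417, 375 and 371 CPM in naive, 383, 289 and 267 CPM in CpG, and 65.9 and 57.1 CPM in TLR. Cnp, a cyclic nucleotide phosphodiesterase best known from myelin, was at 437, 498 and 517 CPM in naive, 423, 427 and 428 CPM in CpG, and 54.1 and 69.5 CPM in TLR. The 3 CpG libraries of Cnp were the closest set of CpG values among the 64 genes. Cerk, which phosphorylates ceramide, was at 388, 434 and 451 CPM in naive, 350, 311 and 346 CPM in CpG, and 69.0 and 82.0 CPM in TLR, the CpG libraries all below the naive ones. Ero1lb, an oxidase that drives disulfide formation in the endoplasmic reticulum, was at 176, 195 and 196 CPM in naive, 227, 234 and 226 CPM in CpG, and 29.3 and 45.8 CPM in TLR, the CpG libraries all above the naive ones.

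Mitochondrial and amino acid enzymes were lower in level. Pdk2, which inhibits pyruvate dehydrogenase, was at 17.8, 13.4 and 13.4 CPM in naive, 13.5, 12.7 and 13.1 CPM in CpG, and 1.31 and 2.06 CPM in TLR. Kynu, the kynureninase of tryptophan breakdown, was at 41.8, 51.7 and 53.0 CPM in naive, 34.3, 44.0 and 30.1 CPM in CpG, and 4.39 and 5.35 CPM in TLR. Bckdha, a subunit of the branched-chain keto acid dehydrogenase, was at 70.2, 58.6 and 63.2 CPM in naive, 62.6, 44.7 and 51.7 CPM in CpG, and 13.6 and 10.8 CPM in TLR. In each of these 3 the 2 TLR libraries were well below the rest. Selenop, a selenium carrier, was at 145, 71.8 and 61.5 CPM in naive, 85.4, 78.5 and 62.7 CPM in CpG, and 11.5 and 13.3 CPM in TLR. The naive library with the high Selenop value, replicate 1, is also the one with the highest macrophage marker sum (1365 CPM), and the part of those cells in its level was not tested. Dglucy, a mitochondrial D-glutamate cyclase, had 1 high CpG library, at 15.6, 18.0 and 31.9 CPM in CpG, against 17.0, 14.2 and 14.8 CPM in naive and 2.56 and 2.83 CPM in TLR. The other enzymes (Aldh3b1, Cyp39a1, Fmo5, Mettl7a1, Pgam2, Stard10) had naive means of 5.19 to 38.4 CPM and TLR shares of 7.64% to 24.2%.

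A set of ion channel, neuronal receptor, cilium and motor genes had naive means of 5.46 to 75.6 CPM, against a median of 86.4 CPM over the 64. Scn4a, the sodium channel of skeletal muscle, was at 79.7, 71.2 and 75.8 CPM in naive, 63.6, 71.4 and 52.9 CPM in CpG, and 8.38 and 14.5 CPM in TLR. Scn4a lies 3.83 kb from Cd79b on the same strand of chromosome 11 (GRCm38, Cd79b at 106311341 to 106314762 and Scn4a at 106318592 to 106353288), and the naive-to-TLR folds of the pair were 6.60 and 4.10. Cacna1h, a calcium channel, had means of 15.7 ± 3.48 CPM in naive, 17.0 ± 2.68 in CpG and 1.40 ± 0.282 in TLR (SD, n = 3, 3 and 2). Sorcs2, a sorting receptor of neurons, was at 7.60, 13.5 and 10.9 CPM in naive, 13.2, 15.8 and 9.42 CPM in CpG, and 0.684 and 0.772 CPM in TLR. Armc3 had the fewest counts, 4 and 11 in the TLR libraries (0.228 and 0.566 CPM) against 3.74 to 8.61 CPM in the other libraries. Sorcs2, Armc3 and Mettl7a1 had under 20 counts in each TLR library, so their folds are less precise than the rest. Chrnb1 (an acetylcholine receptor subunit), Kif19a and Bbs9 (a motor and a subunit of the cilium) had TLR shares of 16.9%, 14.4% and 21.9%. The less described genes Rflnb, AB124611, 5430427O19Rik, Fam43a and Susd1 had naive means of 51.8 to 242 CPM and TLR shares of 11.0% to 24.0%.

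Family relatives that did not meet the rule were compared by the fit over all genes. They were picked by name after the 64 genes were known. Cd79a, the partner chain of Cd79b, was at 1344 ± 94.4 CPM in naive, 1331 ± 352 in CpG and 545 ± 15.9 in TLR (SD, n = 3, 3 and 2), and fell in TLR against CpG (log2 fold change -1.30, SE 0.213, edgeR adjusted p = 0.00107). The TLR mean of Cd79a was 41.0% of its lower other mean, against 24.99% for Cd79b. The other Ras exchange factors of the Rasgrp3 family fell as well, but already stood lower in CpG than in naive. Rasgrp1 had means of 282, 122 and 17.4 CPM and Rasgrp2 of 594, 295 and 37.2 CPM, with log2 fold changes of -2.82 (SE 0.163) and -3.002 (SE 0.266) in TLR against CpG and edgeR adjusted p of 5.84e-06 and 3.12e-05. The Klf relatives were split. Klf2, a keeper of lymphocyte quiescence, went from 711 CPM in naive to 307 in CpG and 7.58 in TLR (log2 fold change -5.35, SE 0.218, edgeR adjusted p = 2.67e-06 against CpG). Klf3 fell too, while Klf10 (16.6, 13.0 and 14.2 CPM) and Klf13 (421, 227 and 206 CPM) were not called in TLR against CpG. Against naive, Klf13 was called lower in TLR (log2 fold change -1.02, edgeR adjusted p = 9.31e-05) and Klf10 was not called.

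Other families held a relative with little or opposite difference in TLR against CpG, and the calls that follow are for that comparison unless stated. Btg1 was at 775, 713 and 568 CPM and was not called in TLR against CpG (edgeR adjusted p = 0.0721, but called by DESeq2). Bcl2l11, which like Bmf promotes apoptosis, was at 78.4, 180 and 212 CPM and was not called. Pdk1 (80.5, 72.9 and 78.2 CPM), Pdk3 (24.7, 52.8 and 49.2 CPM), Trp53inp2 (15.3, 43.9 and 45.6 CPM) and Ptp4a2 (600, 942 and 1016 CPM) were not called. Csf2rb, the chain shared with Il5ra, was at 48.2, 41.2 and 36.8 CPM and was not called, and neither was Notch2, the receptor regulated by Dtx1 (624, 287 and 272 CPM). In TLR against naive, Bcl2l11, Pdk3, Trp53inp2 and Ptp4a2 were called higher (log2 fold changes 1.44, 0.997, 1.58 and 0.764). Btg1 and Notch2 were called lower against naive (-0.445 and -1.19), and Pdk1 and Csf2rb were not called. The edgeR adjusted p of these calls against naive was 0.0169 or less. Ero1l, the other endoplasmic reticulum oxidase, was higher in TLR at 22.2, 37.0 and 81.0 CPM (log2 fold change 1.12, SE 0.315, edgeR adjusted p = 0.0190), a call that was lost without TLR replicate 1 (log2 fold change 0.68, adjusted p = 0.214). Dtx4 rose to 28.4 CPM in TLR (log2 fold change 1.23, SE 0.265, edgeR adjusted p = 0.00503), against the lower Dtx1. Cd72, the receptor for Sema4d, fell from 505 to 129 CPM (log2 fold change -1.98, SE 0.233, edgeR adjusted p = 0.000154), and Sema4b from 132 to 16.7 CPM. Sema4a, at 7.21, 4.02 and 13.5 CPM, rose in TLR against CpG (log2 fold change 1.73, SE 0.343, edgeR adjusted p = 0.00319), with both TLR libraries above all others. Whether any of these relatives differed from the member of its family was not tested.

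**Figure D4:**
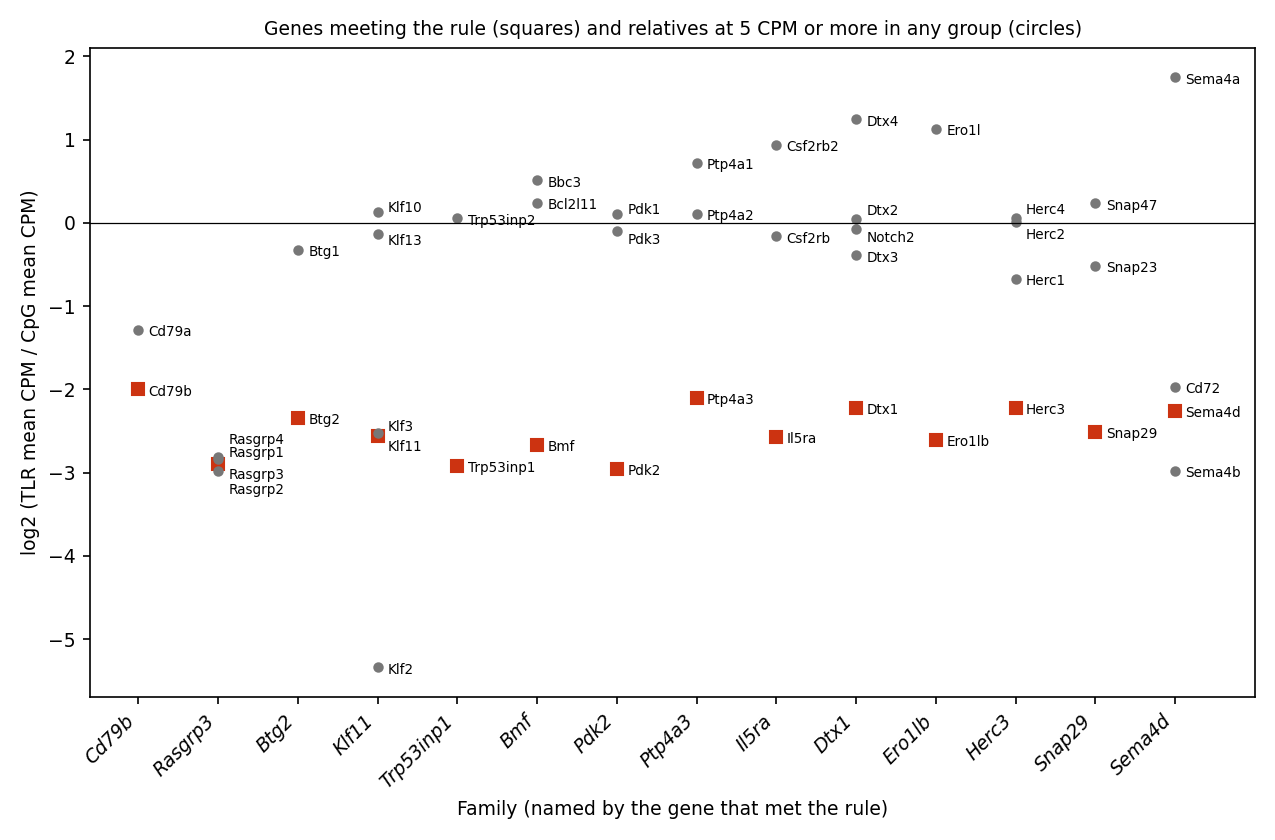
Log2 of TLR over CpG mean CPM for 14 of the 64 genes (red squares) and their relatives with a mean of at least 5 CPM in any group (grey circles), by family on the x axis. In the Rasgrp family the circles lie near the square, in the Sema4d family Sema4a lies above 0 while Sema4b and Cd72 lie near the square, in the Klf family they lie on both sides, and in the Bmf, Pdk2, Ero1lb and Trp53inp1 families above 0 or close to it.

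The genes around the 64 in their pathways were counted from 14 lists, leaving the 64 out, in TLR against CpG. Over all 13964 tested genes, 19.8% were called lower and 19% higher, with a median log2 fold change of -0.02. Of 37 tested genes of B cell receptor signalling, 31 fell and 2 rose, with a median of -1.22. The count of falls was 27 to 31 with DESeq2's median-ratio factors, with DESeq2, with the block or with any library left out. The 2 rises were 1 without CpG replicate 2 or TLR replicate 2 and 0 without TLR replicate 1. Among the falls Fcrla, a B cell Fc receptor-like protein, went from 441 to 287 to 25.2 CPM (log2 fold change -3.52, SE 0.167, edgeR adjusted p = 2.67e-06 against CpG). The proton channel Hvcn1 went from 794 to 410 to 66.3 CPM and the kinase Blk from 672 to 196 to 42.6 CPM, so both were already lower in CpG than the window of the rule allows. Blnk, the central adaptor of the receptor, narrowly missed the rule, with means of 447, 468 and 114 CPM and a TLR share of 25.5% (log2 fold change -2.05, SE 0.150, edgeR adjusted p = 1.24e-05 against CpG). Bank1, Cd79b and Rasgrp3 are the genes of this list among the 64.

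Lists of resting and lineage genes gave the same direction more often than the other. Of 35 quiescence factors 20 fell and 4 rose (median -0.88), with Klf2 and Mxd4 (223, 127 and 7.63 CPM) the most marked. Of 36 B lineage transcription factors 22 fell and 3 rose (median -0.73), among them Pou2af1, a coactivator of octamer-binding factors, with means of 842, 1022 and 235 CPM (log2 fold change -2.13, SE 0.180, edgeR adjusted p = 2.44e-05 against CpG). Of 29 homing and G protein-coupled receptors 15 fell and 3 rose (median -0.98), S1pr1, the receptor for lymphocyte egress, going from 404 to 109 to 3.82 CPM, and 1 rose without TLR replicate 1. Of 42 PI3K and inositol lipid enzymes 23 fell and 5 rose (median -0.50), and 14 fell and 0 rose without TLR replicate 1. The 5 rises were 3 without naive replicate 2, CpG replicate 2 or CpG replicate 3, and 2 without TLR replicate 2. Of 29 Toll-like receptors and partners 16 fell and 0 rose (median -0.48), with 0 also higher at an unadjusted p below 0.05 and by DESeq2. Without TLR replicate 1, 10 of these fell and 1 rose. Unc93b1, the chaperone of endosomal Toll-like receptors, had means of 989, 1446 and 316 CPM and Tlr4, the receptor for LPS, of 31.5, 14.4 and 2.30 CPM, and both fell against CpG in the same test.

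In the families defined by symbol and other lists that follow, 5.88% to 31.6% of genes fell. These shares lay nearer to the 19.8% of all tested genes than those of the lists above. Their rises were not all near the 19% of all tested genes: 8 of 19 clock genes rose, but 24 of 370 zinc finger genes. Of 146 ubiquitin ligase substrate receptors 34 fell and 8 rose (median -0.18), with 20 falls without TLR replicate 1 and 5 rises without either TLR library. In that family Klhl14 went from 55.0 to 30.3 to 1.21 CPM. Of 370 zinc finger genes 76 fell and 24 rose (median -0.16), with 45 and 4 without TLR replicate 1 and 37 and 14 without TLR replicate 2. Of 95 histone and chromatin modifiers 30 fell and 15 rose (median -0.21), with 18 falls without TLR replicate 2 and 9 or 8 rises without TLR replicate 1 or 2. Of 230 solute carriers 48 fell and 47 rose (median -0.03), with 28 falls without either TLR library, 25 rises without TLR replicate 1, and more rises than falls without CpG replicate 1 (53 and 46) or TLR replicate 2 (38 and 28). Of 69 DNA repair genes 10 fell and 16 rose (median 0.15), with 5 falls without either TLR library, and 7, 9 and 10 rises without TLR replicate 1, TLR replicate 2 or CpG replicate 2. Of 19 clock genes 4 fell and 8 rose (median 0.08), with 2 falls without naive replicate 2, CpG replicate 3 or either TLR library or with the replicate block, and 5 rises without TLR replicate 1. Of 23 SMAD and TGF-beta genes 3 fell and 1 rose (median 0.02), with 1 fall without either TLR library and 0 to 3 rises over the libraries left out (0 without naive replicate 2 or 3 or either TLR library, and with the replicate block, 2 without CpG replicate 1 and 3 without naive replicate 1). Of 17 genes of the BCL2 family 1 fell and 2 rose (median 0.23), with 2 falls without CpG replicate 1 or TLR replicate 1, with DESeq2 or with the replicate block, and 1 rise without either TLR library or with the block. In the BCL2 family the fall was Mcl1, at 1616, 1503 and 627 CPM, and Bcl2l1, a survival protein, rose from 46.8 to 172 CPM (log2 fold change 1.87, SE 0.113, edgeR adjusted p = 5.84e-06), against the lower Bmf.

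**Figure D5:**
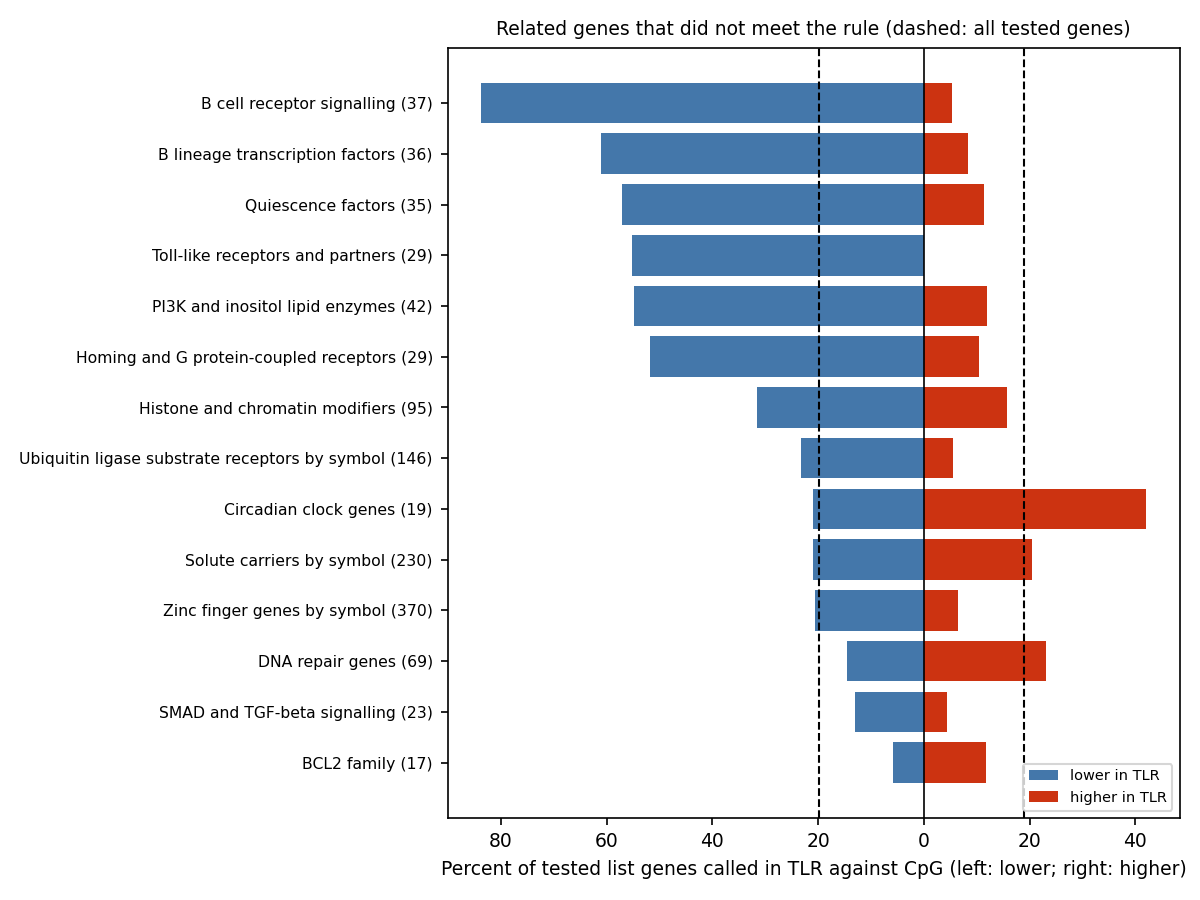
Percent of tested genes of each list, the 64 left out, called lower (blue, left) or higher (red, right) in TLR against CpG, with the number tested in brackets and dashed lines at 19.8% and 19% for all tested genes. B cell receptor signalling has the longest blue bar (31 of 37), and the Toll-like receptor list has no red bar.

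By position in the GRCm38 annotation the 64 genes lay on 18 chromosomes, with 9 on chromosome 11 and 7 on chromosome 9. Of neighbouring pairs, 5 were within 200 kb: Cd79b and Scn4a (3.83 kb), Kynu and Arhgap15 (66.1 kb), Ceacam1 and B3gnt8 (149 kb), Dennd3 and Ptp4a3 (151 kb), and the overlapping B3gnt8 and Bckdha. The nearest tested protein-coding genes on either side, 119 genes outside the 64, included 44 called lower (37.0%) and 17 called higher (14.3%) in TLR against CpG, against 19.8% and 19% of all tested genes. Their median log2 fold change was -0.40. All 119 are protein-coding, while the shares over all tested genes include other kinds of gene. Among the neighbours called lower are Dnajc7, whose exons overlap those of Cnp, and Naip6, a close copy of Naip5. A part of position in these calls was not tested. Exons of 15 of the 64 genes overlap a gene on the opposite strand, as for Cnp, Rubcn, Acp5, Snap29 and Siae, so for these the reads of both genes cannot be told apart where they overlap.

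The transcripts of the 64 genes, taken from GENCODE M21, were set beside those of all genes of the window. Each median of the 64 given here lay between the lower and upper quartiles of the window. The median gene span was 30634 against 23566 bases, and the median number of exons 9 against 8. The median coding length was 1426.5 bases, against 1401 over the 6241 genes, and the median transcript 3364 against 2979 bases. The median 3′ UTR was 1230.5 against 975 bases. The letters TATTTAT, the core of AU-rich elements that shorten the life of many mRNAs, were in the 3′ UTR of 19 of 64 genes (29.7%) against 27.4% of the genes of the window with a 3′ UTR. The shorter letters ATTTA occurred at a median of 0.887 per kb of 3′ UTR against 1.28 per kb. These are descriptions of the annotated transcript with the longest coding sequence, and the transcripts used in these cells were not analysed here.

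Which genes met the rule depended in part on single libraries. With each library left out in turn, 61 to 77 genes met it, and 37 of the 64 met it in all 8 such sets. Cd79b and Dglucy, which lie near the limits of the rule, met it in 5 of the 8. Without the 3 libraries numbered replicate 1, 61 genes met it, of which 46 were among the 64. Among the 18 that then did not meet it were Cd79b, Bank1, Ly6e, Ptp4a3, B3gnt8 and Acp5.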

How the data were processed

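Splenic B cell RNA was sequenced in 8 libraries. The authors deposited raw counts per gene, with reads aligned by STAR to mm9 and counted by HTSeq, per the submitters' processing notes, which also name edgeR, without versions. The kit is strand-specific per the labels, but per the file names counting ignored strand. Rows that name no gene were left out: no-feature reads were 7.84% to 15.0% and ambiguous reads 1.29% to 2.15%, and identifiers without a match held at most 1.02% of gene counts.

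Of 37583 identifiers, 32860 matched GENCODE M21, which is on another build (GRCm38) than the files and was used for symbols, lengths and positions. CPM values used the total over genes. The fit over all genes used edgeR 4.0.16 in R 4.3.3 (filterByExpr, 13964 genes, TMM factors, quasi-likelihood test, 3 group means over 8 libraries), tested on simulated data first. Calls had a Benjamini-Hochberg adjusted p below 0.05. DESeq2 1.42.0, other scalings, a replicate block and each library left out were alternatives. No 2 libraries of a group agreed within sampling noise (chi-square per degree of freedom 10.4 to 48.8).

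The 64 genes and the lists were chosen with earlier results of these data known, and the roles and relatives after the 64 were known. Named by rule were the 10 genes highest in CpG, the 10 with the lowest TLR share, up to 5 per list, 3 on each side of the limit, and up to 4 per list outside the 64. All others of the 64 were named to account for every gene. Results for 1 other gene list and 1 marker gene are not reported here.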

Additional observations from a re-analysis of the deposited data

How the results depend on the processing

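The number of genes meeting the rule, 64, became 66 with TMM and 71 with DESeq2's median-ratio factors, and both sets held all 64. It was 123 at a limit of 33% and 39 at 20%, with median log2 ratios of TLR to CpG of -2.128 and -2.90 against -2.58. It was 126 with a CpG to naive window of 0.5 to 2, and 38 with 0.8 to 1.2 (median -2.365). With a library left out it was 61 to 77, with medians of -2.686 to -2.476. Without the 3 replicate 1 libraries the median was -2.486.

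In TLR against CpG, 2770 genes were called lower and 2647 higher; with a library left out these were 1833 to 2892 and 1682 to 2736, lowest without TLR replicate 1. DESeq2 called 3027 lower and 2671 higher. Deviations of same-numbered libraries correlated at r = 0.173, 0.0856 and 0.0544 for naive and CpG. Their r was 0.319 and 0.382 for CpG and TLR, and 0.108 and -0.0399 for naive and TLR, so they did not all deviate together. CpG replicate 3 correlated slightly better with naive replicate 2 (r = 0.0889) than with its own number, but both values were small. The highest values were between same-numbered CpG and TLR libraries, so a shared replicate effect cannot be set aside. Deviations of the 2 TLR libraries from their mean are exact mirror images, so their r with any other library differ only in sign. The values of 0.319 and 0.382 are therefore not independent of each other. The main fit did not take the numbers as pairs and did not model such an effect. With the replicate block, 2822 were lower and 2719 higher in TLR against CpG, 4187 and 4415 in TLR against naive, and 3237 and 3428 in CpG against naive. Of 330 recomputed list counts, 277 were within 1.5 times. The sign of the log2 fold change held for the 31 genes outside the 64 that were recomputed. Which direction had more calls did turn with the setting: TLR against CpG had 2720 lower and 2722 higher with library size alone, TLR against naive went from 4142 lower and 4409 higher to 4359 and 4170 with DESeq2's factors, 4399 and 4144 with DESeq2 and 4363 and 4264 with a filter of 1 count, and CpG against naive from 3061 and 3286 to 3274 and 3044, 3372 and 3196, and 3265 and 3116. In the BCL2 family, 1 lower and 2 higher became 2 and 1 with the block and without TLR replicate 1. Low counts limit Armc3, Sorcs2 and Mettl7a1.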
